A study of Mus musculus with 4 samples.

Results

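This account concerns Treg cells set against T-effector cells from mouse CD4+ cultures that received IL6 together with IL2, measured on 3 of the study's 13 two-colour arrays. The arrays were chosen by their label alone: each carries Treg RNA in one dye and T-effector RNA in the other, and every value is the Treg signal over the T-effector signal of the same array. In every condition CD4+ cells of lymph nodes were stimulated on wells coated with anti-CD3 (1 ug/ml, plates of 4 days), with the cytokines present for 3 days. The IL6 cultures had 100 units/ml IL2 and 25 ng/ml IL6. Arrays used for comparison came from cultures with IL2 alone (3 arrays) and with IL2, 4 ng/ml TGFb and 25 ng/ml IL6 (4 arrays), and 3 further arrays with IL2 and TGFb entered the same fit. The labels do not say how Treg and T-effector cells were separated, or whether arrays hold separate cultures or animals, so the p-values measure only how far these arrays scatter, and part of that scatter may be technical.

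Regulatory T cells (Treg) are CD4+ cells that hold back other T cells and depend on the transcription factor Foxp3. TGFb, acting through its receptors and Smad proteins, can turn activated CD4+ cells into Foxp3+ cells, and IL6 interferes with this conversion, a subject named in the series title. IL6 binds Il6ra, the complex joins gp130 (Il6st), Jak kinases phosphorylate Stat3, and Stat3 turns on Socs3, an inhibitor that shuts the receptor off. Smad7 has the matching role of an inhibitor in the TGFb pathway. Stefins, a compact family of cytosolic inhibitors of cysteine proteases, are encoded in mouse by a cluster of closely related genes on chromosome 16.

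Members of this stefin A cluster were among the genes with the highest Treg over T-effector ratios in these cultures, and Socs3 is the classic target gene of Stat3, so their promoters are shown first. The windows are the 250 bases before the annotated start, written 5′ to 3′ in the gene's direction, from RefSeq on GRCm38.p6. Capitals mark the 13 bases ACCTTTAAAACCC, the longest stretch that the windows of Stfa2l1, Cstdc4, Stfa2 and Stfa3 share, found after these windows had been read.
Stfa2l1: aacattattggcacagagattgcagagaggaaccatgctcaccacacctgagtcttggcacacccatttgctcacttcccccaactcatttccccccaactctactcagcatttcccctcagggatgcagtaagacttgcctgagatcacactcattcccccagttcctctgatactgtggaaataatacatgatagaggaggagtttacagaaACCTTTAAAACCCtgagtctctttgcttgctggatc
Cstdc4: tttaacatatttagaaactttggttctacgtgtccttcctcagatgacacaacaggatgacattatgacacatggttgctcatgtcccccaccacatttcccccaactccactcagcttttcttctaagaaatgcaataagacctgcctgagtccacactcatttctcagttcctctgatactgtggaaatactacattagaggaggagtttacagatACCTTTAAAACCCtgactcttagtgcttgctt
Stfa2: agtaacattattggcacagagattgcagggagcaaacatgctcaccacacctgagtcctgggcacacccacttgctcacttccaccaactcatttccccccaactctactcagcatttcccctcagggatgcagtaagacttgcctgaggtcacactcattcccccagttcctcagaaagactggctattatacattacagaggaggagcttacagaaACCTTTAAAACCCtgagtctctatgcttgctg
Stfa3: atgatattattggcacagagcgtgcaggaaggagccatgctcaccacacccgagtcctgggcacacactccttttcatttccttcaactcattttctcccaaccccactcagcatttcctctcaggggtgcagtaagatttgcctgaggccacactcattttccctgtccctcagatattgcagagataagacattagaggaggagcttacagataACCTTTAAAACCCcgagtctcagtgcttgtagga
Csta2: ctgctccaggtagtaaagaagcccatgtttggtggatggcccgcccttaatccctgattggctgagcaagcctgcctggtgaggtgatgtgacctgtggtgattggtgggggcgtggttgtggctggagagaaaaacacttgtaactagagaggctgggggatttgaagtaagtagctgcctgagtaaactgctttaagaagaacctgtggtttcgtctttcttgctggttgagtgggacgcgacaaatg

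These windows lie at chr16:36156561-36156810 (Stfa2l1, plus strand), chr16:36183962-36184211 (Cstdc4, plus), chr16:36408364-36408613 (Stfa2, minus), chr16:36455393-36455642 (Stfa3, minus) and chr16:36221312-36221561 (Csta2, plus). The capital stretch begins 36 bases before the start of Stfa2l1, 32 before those of Cstdc4 and Stfa2, and 34 before that of Stfa3. On either strand it occurs in 7 of the 11 windows of the stefin cluster, among them the 4 from which it was taken. Over the windows of all genes, those of the cluster included, it occurs in 8 of 32851 (0.0244%). The Csta2 window does not hold these letters and shares 48.5% of aligned bases with that of Stfa2l1, against 89.4% for Stfa2, 80.5% for Stfa3 and 72.9% for Cstdc4. In the window of Socs3, at chr11:117969367-117969616 on the minus strand, capitals mark the one match to TTCNNNGAA, the palindromic form of a Stat site, 154 to 146 bases before the start. That motif occurs in 2306 of 32851 windows (7.02%) and in 1 of the 11 stefin cluster windows, that of Cstdc4. A match is a description of these letters only.
Socs3: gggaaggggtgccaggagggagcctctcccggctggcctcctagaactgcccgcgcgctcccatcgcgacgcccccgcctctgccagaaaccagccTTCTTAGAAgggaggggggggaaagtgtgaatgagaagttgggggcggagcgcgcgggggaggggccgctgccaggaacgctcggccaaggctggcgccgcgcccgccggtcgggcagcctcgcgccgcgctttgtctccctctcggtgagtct

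The 3 arrays were not alike. A log2 ratio over 1 was reached by 992 genes on array 2, against 284 and 303 on arrays 1 and 3. Of the 992, 614 had ratios under 0.5 on both other arrays. In the other direction, 126 genes were under -1 on array 2 and above -0.5 on both others. For the effector genes given here the differences lay on the Treg side. On array 2 the Treg levels of effector cytokine and granzyme genes were far below those of arrays 1 and 3, while the T-effector levels of the same genes were close. The log2 level of Ifng, the main Th1 cytokine, was 13.22, 10.51 and 13.28 in the Treg channels of arrays 1, 2 and 3, and 13.39, 13.61 and 13.48 in the T-effector channels. For Il4, the Th2 cytokine, the Treg levels were 10.47, 7.45 and 10.39. For Gzma, a granzyme of killer cells, they were 12.26, 7.80 and 11.56. Of 19 Th1 and cytotoxic genes, 8 had a log2 ratio under -1 on array 2 and 0 on arrays 1 and 3, and none passed the test over the 3 arrays. The one array with IL2 alone on the same slide as array 2 (slide A) had part of this pattern. Its Treg level of Gzma was 8.02, against 10.48 and 10.59 on the other arrays with IL2 alone, and that of Gzmc, another granzyme, was 8.83 against 10.77 and 11.50. Its Treg level of Il4, 9.67, was not below the others, 9.17 and 9.37. Arrays 1 and 3 share a slide (here slide E) and carry a spatial trend that takes up 31.2% and 35.7% of the variance of their log ratios, against 1.08% on array 2. In the ratios that were tested, which keep that trend, arrays 1 and 3 correlated at 0.172 across genes, which are not independent replicates. Each of them correlated with array 2 at 0.207 and 0.314. After removal of the trend arrays 1 and 3 correlated at 0.676, against 0.273 and 0.352 for each with array 2.

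A second difference concerned genes of the Y chromosome. Ddx3y, a Y-linked RNA helicase, was well above background in the Treg channel of 11 of all 13 arrays and in the T-effector channel of 0 of 13, and the exceptions among Treg channels were IL6 arrays 1 and 3. Its Treg levels on IL6 arrays 1, 2 and 3 were 6.14, 8.92 and 5.81, and on the arrays with IL2 alone 8.84 (slide A), 6.37 and 6.42. Eif2s3y, a Y-linked translation factor subunit, stood clear of background on the Treg side of all 13 arrays and on the T-effector side of 5. By level it was likewise low in Treg on IL6 arrays 1 and 3, at 6.46 and 6.38. With IL2 alone its Treg levels were 10.14, 8.49 and 7.63, and its value on IL6 array 2 is missing. Kdm5d and Uty, also Y-linked, stood clear of background in Treg RNA of array 2 alone among the IL6 arrays. In T-effector RNA they did so on 0 of 13 arrays. Xist, the RNA of the inactive X chromosome, had ratios of 1.23, -1.16 and 0.55. The part of these differences in the results was not tested. For genes described in detail, the adjusted p without 1 of the 3 arrays is given where the call is lost.

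**Figure D1:**
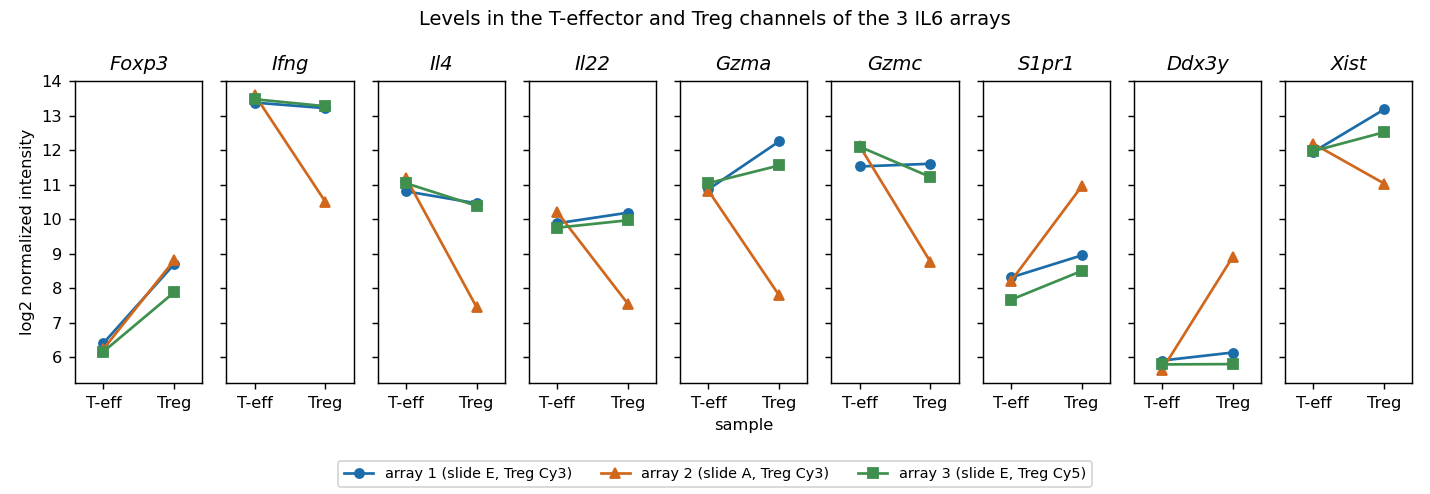
Normalized log2 intensity (vertical axis) of 9 genes in the T-effector and the Treg channel of each of the 3 IL6 arrays, with a line joining the channels of 1 array. Foxp3 is higher in the Treg channel on every array, while Ifng, Il4, Il22, Gzma and Gzmc are low and S1pr1 and Ddx3y high in the Treg channel of array 2 among these 3 arrays.

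Markers of other cells were set against the share of all genes called, 5.84%. All 12 T cell markers were well above background in every channel. Summed signals of 12 B cell markers were 3905, 4896 and 4473 in the Treg channels against 2448, 2202 and 2424 in the T-effector channels. Of the 12, 1 passed the test: Ighm, the IgM heavy chain, at a log2 ratio of 1.48 ± 0.11. The sums add linear signals, so 1 strong gene can carry them. Ighm had levels of 11.16, 11.84 and 11.44 in Treg channels and 9.99, 10 and 9.95 in T-effector channels. The median ratio of the 12 markers was 0.09. Cd79a, a chain of the B cell receptor, was well above background in 1 of 3 Treg channels and had a ratio of 0.08, which did not pass. Summed myeloid and dendritic markers were 4056, 3529 and 4172 against 4451, 4387 and 4602, and 0 of 13 passed. Of the CD8 and NK markers 0 of 15 passed, although their sum in the Treg channel fell to 4373 on array 2 from 11470 and 10330 on arrays 1 and 3. Gzma, whose Treg levels are given above, is 1 of the 15. On array 2, 5 of the 15 had a ratio under -1. Cd74 (0.60), 1 of 10 MHC class II genes, and the chemokine Ccl19 (1.46), 1 of 9 erythroid and stromal markers, passed and lost their calls without array 2 (adjusted p = 0.0641 and 0.118) or array 3 (0.121 and 0.172). The part of RNA of these cells in the Treg results was not tested.

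Over all genes, Treg and T-effector cells of IL6 cultures differed at 1162 of 19901 genes (5.84%) by limma's moderated test with a Benjamini-Hochberg adjusted p under 0.05. Of these, 748 (3.76% of all genes) were higher and 414 (2.08%) lower in Treg. A log2 ratio above 1, more than 2-fold, was reached by 165 of the higher genes, and one below -1 by 9 of the lower genes. Most differences above 2-fold were therefore of genes higher in Treg. Without array 3 the count was 167, and without array 3 of the cultures with TGFb and IL6 it was 716. Of 86 named genes that passed, 72 passed without array 1, 57 without array 2 and 35 without array 3. Since arrays 1 and 3 share a slide, the arrays of 1 slide were also averaged before the fit, which left 243 calls in all and 38 of the 86 named genes. Foxp3, Socs3, Smad7, Ikzf2, Itgae, Csta2, Cstdc6 and Stfa2l1 were among those 38. The median log2 ratio of all genes was 0.01. It was -0.32 when arrays were centred on their median in place of the intensity-dependent loess normalization. Ratios near 1 depend on that choice as well as small ones: Junb went from 1.09 to -0.13 and Icos from 1.05 to -0.10. Among named genes called in either of these 2 fits, 25 positive ratios turned negative under median centring. A further 14 kept their sign and lost their call, among them Socs3, Ctla4, Tgfbr1, Tnfrsf9 and Ifngr1.

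Foxp3 was higher in Treg on every array. Its Treg levels were 8.70, 8.82 and 7.89 and its T-effector levels 6.41, 6.24 and 6.17, so the channels did not overlap. The log2 ratios were 2.29, 2.57 and 1.72, with a fitted value of 2.12 ± 0.17 (SE, n = 3), a 4.35-fold difference (adjusted p = 5.29e-05). The ratio was 2.39 with IL2 alone and 2.16 with TGFb and IL6, close to the value with IL6. In RNA of whole samples, fewer cells with a transcript and less of it per cell cannot be told apart.

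**Figure D2:**
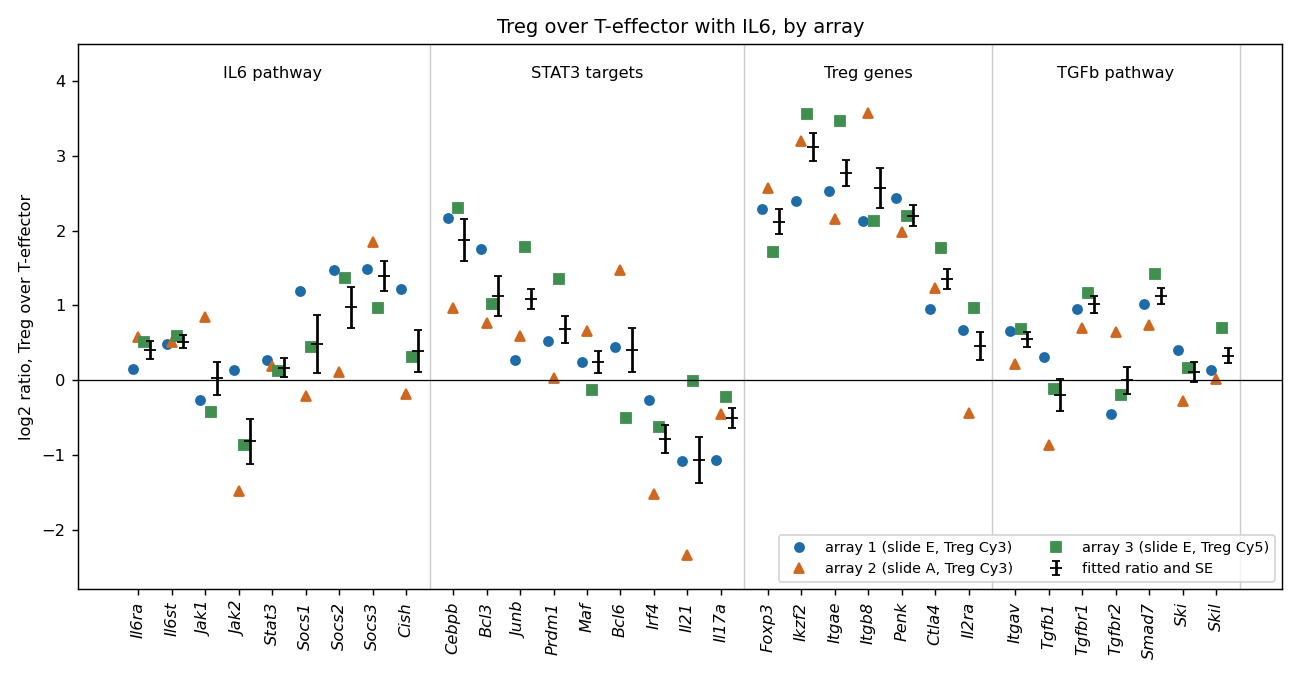
Log2 ratio of Treg over T-effector signal (vertical axis) for genes of the IL6 pathway, Stat3 targets, Treg genes and the TGFb pathway (horizontal axis), with 1 coloured marker per IL6 array and black bars for the fitted ratio ± SE. Foxp3, Ikzf2, Itgae, Itgb8 and Penk lie far above 0 on every array, while Socs1, Irf4 and Il21 have their array 2 value below the others.

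Most genes of the IL6 pathway did not pass, and the genes that did were the receptor's shared chain and the feedback inhibitor. Of 14 tested genes of the pathway, 2 were higher (Socs3 and Il6st) and 0 lower, against 3.76% and 2.08% of all genes. The median log2 ratio of the pathway was 0.22. Under median centring 0 were higher and 7 lower, with a median of -0.76. Socs3 had the largest ratio of the pathway. Its ratios were 1.49, 1.85 and 0.97, all well above 0, and the fitted value was 1.39 ± 0.20, or 2.63-fold (adjusted p = 0.00346). Its Treg levels of 11.60, 12.47 and 11.67 stood above every T-effector level, which were 10.11, 10.62 and 10.70. Under median centring its ratio was 0.33 and did not pass.

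Among the receptor chains, Il6st, the signalling chain gp130, had ratios of 0.48, 0.51 and 0.59. These 3 values lay close together, with a fitted value of 0.52 ± 0.08 (adjusted p = 0.00508). Il6ra, the chain that binds IL6 itself, had ratios of 0.15, 0.58 and 0.51 and did not pass (adjusted p = 0.0692). Its other probe had 0.48, 0.36 and -0.32, with a fitted value of 0.12. Il6st lost its call without array 3 (adjusted p = 0.0972) and with arrays of 1 slide averaged (0.0555), and under median centring its ratio was -0.19.

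Stat3, the factor that carries the IL6 signal, did not pass, with ratios of 0.28, 0.19 and 0.13 (fitted value 0.17, adjusted p = 0.475). The kinases did not pass either, with Jak1 at 0.03 and Jak2 at -0.82, the latter spread from 0.13 on array 1 to -1.49 on array 2. Of 8 inhibitors only Socs3 passed. Socs2, an inhibitor of growth hormone and related receptors, had ratios of 1.48, 0.11 and 1.36 (adjusted p = 0.0624), low on array 2 alone, and Socs1 had 1.20, -0.21 and 0.44.

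Known targets of IL6 and Stat3 had calls in both directions. Of 25 tested, 3 were higher and 3 lower, against 3.76% and 2.08% of all genes, and the median ratio was 0.21. Under median centring 1 was higher and 12 lower, with a median of -0.56. The higher ones were Cebpb, Bcl3 and Junb, all transcription regulators of inflammatory signals. Cebpb had ratios of 2.17, 0.97 and 2.30 and a fitted value of 1.87 ± 0.29 (adjusted p = 0.00424), with its lowest value on array 2. Bcl3 had 1.75, 0.76 and 1.01 (adjusted p = 0.03) and Junb 0.28, 0.59 and 1.78 (adjusted p = 0.00118), so Junb was highest on array 3. Cebpb lost its call without array 3 (adjusted p = 0.0839), and Bcl3 without array 1 (0.0931) or array 3 (0.2).

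The lower ones were Irf4, a factor of activated T cells, Il17a, the Th17 cytokine, and Fos, a subunit of AP-1. Irf4 had ratios of -0.27, -1.52 and -0.63 (adjusted p = 0.0351) and lost its call without array 2 (0.0926) or array 3 (0.186). Il17a had -1.07, -0.45 and -0.22 (adjusted p = 0.0424) and lost it without array 1 (0.142) or array 3 (0.192). Fos had -0.22, -0.42 and -0.36 and lost it without array 2 (0.0908) or array 3 (0.134). Il21, a cytokine of follicular helper and Th17 cells, had -1.08, -2.34 and -0.01 and did not pass.

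Genes of the Treg programme were the list with most calls: 15 of 36 tested were higher and 1, Irf4, was lower. The shares of all genes were 3.76% and 2.08%, and the median ratio of the list was 0.57. The list consists of genes chosen for their link to Treg cells. Under median centring 9 were higher and 6 lower, with a median of -0.01. Ikzf2 (Helios), a transcription factor of Treg, had ratios of 2.40, 3.20 and 3.56, above 2 on every array, and a fitted value of 3.12 ± 0.19, or 8.69-fold (adjusted p = 6.94e-06). Its 5 probes ranged from 1.08 to 3.12. Penk, the precursor of enkephalin peptides, had 2.44, 1.99 and 2.20. Gpr83, a receptor found on Treg, reached 1.77 ± 0.13.

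Receptors that restrain or drive T cells followed. Ctla4, the inhibitory receptor by which Treg take CD80 and CD86 from other cells, had ratios of 0.96, 1.23 and 1.77 (fitted value 1.36), and Icos, a costimulatory receptor, had 1.14, 0.94 and 1.12. Tnfrsf9 (4-1BB) reached 1.35 ± 0.10. Ebi3, a chain of the cytokine IL35, had 1.42, 0.05 and 1.54 (adjusted p = 0.016), near 0 on array 2, and lost its call without array 1 (0.0511) or array 3 (0.206). Tnfrsf18 (GITR) had a smaller ratio of 0.50 and lost its call likewise (0.0728 and 0.0993). Not all Treg genes were higher: Il2ra, the IL2 receptor's alpha chain, had 0.67, -0.44 and 0.96, Il10 had a fitted value of 0.11, Gzmb -0.39 and Lag3 -0.43, and none of these passed.

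**Figure D3:**
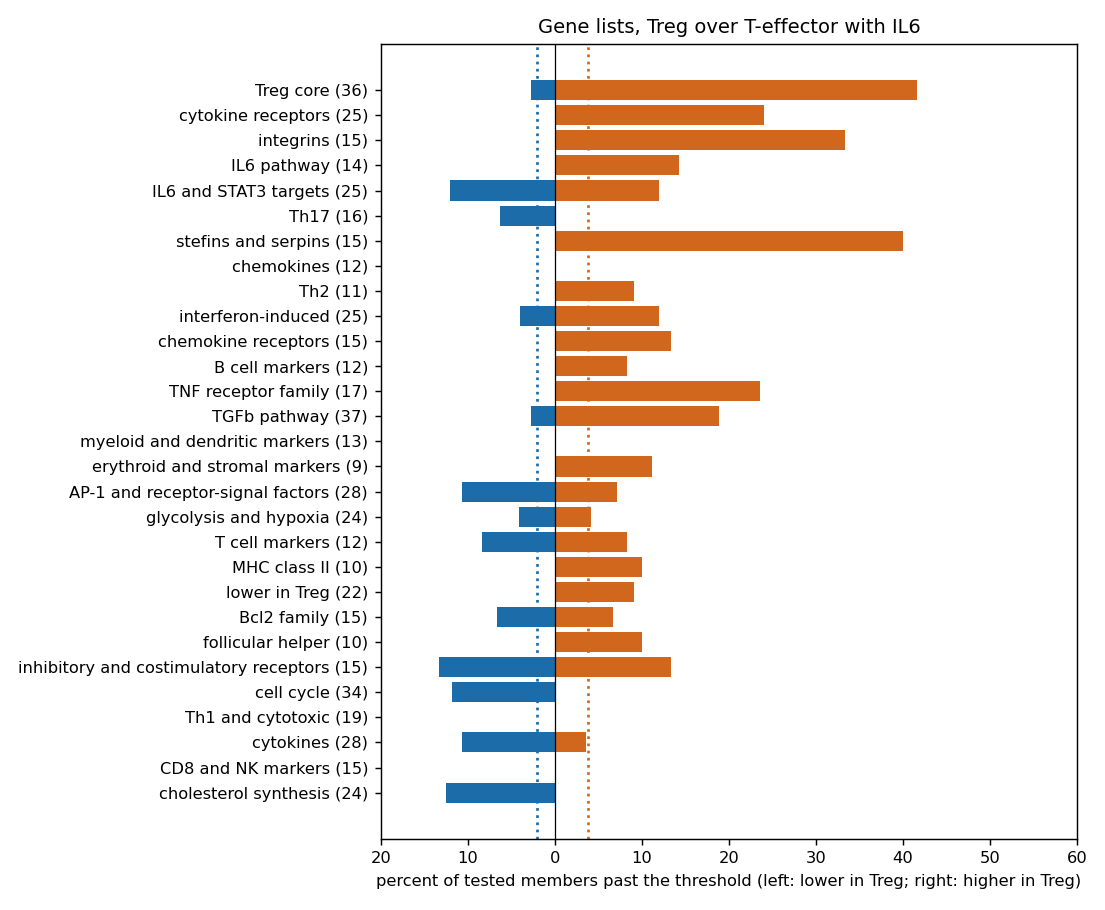
Share of each gene list's tested members that were higher or lower in Treg (horizontal axis, percent), with lists ordered by their median log2 ratio and dotted lines at the shares of all genes, 3.76% and 2.08%. Stefins and serpins, the Treg core genes and TNF receptors show large shares of higher genes, and the lists of cell cycle and cholesterol synthesis genes show lower genes only.

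In the TGFb pathway, whose ligand was not added to these cultures, 7 of 37 tested genes were higher and 1 lower. The shares of all genes were 3.76% and 2.08%, and the median ratio of the pathway was 0.07. Under median centring 3 were higher and 13 lower. Of its 7 ligands or activators, 2 passed. Itgb8, the integrin chain that pairs with Itgav to free TGFb from its latent form, had Treg levels of 8.25, 9.33 and 8.03 and ratios of 2.13, 3.57 and 2.13, with a fitted value of 2.57 ± 0.27 (adjusted p = 0.000365). Its T-effector signal was well above background on array 1 alone, so the ratios of arrays 2 and 3 and the fitted value depend on the background level and have no order. Itgav had 0.66, 0.22 and 0.68 (adjusted p = 0.0118) and lost its call without array 3 (0.133).

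Tgfbr1, the kinase chain of the receptor, had ratios of 0.95, 0.70 and 1.16 (1.02 ± 0.11, adjusted p = 0.000521). Tgfbr2, its partner, had a fitted value of -0.00 and Tgfb1 itself -0.20, and neither passed. Smad4 (0.36) and Smad5 (0.49) were higher (-0.63 and -0.31 under median centring), and Smad3, the factor that TGFb activates, was lower, with ratios of -0.68, -0.34 and -0.41 (adjusted p = 0.0268). All 3 values of Smad3 lay below 0. Without array 3 these Smad factors lost their calls (adjusted p = 0.164 for Smad4, 0.136 for Smad5 and 0.172 for Smad3). Smad4 and Smad5 lost them also without array 2 (0.0961 and 0.147), and Smad3 without array 1 (0.0871).

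Smad7 had ratios of 1.02, 0.74 and 1.42 and a fitted value of 1.12 ± 0.11, or 2.18-fold (adjusted p = 0.000192). Its Treg levels of 8.70, 7.81 and 8.43 all lay above its T-effector levels, the highest of which was 7.68. The other inhibitors of the list did not pass, among them Ski at 0.11, Skil at 0.32 and Pmepa1 at -0.03. Itgae (CD103), an integrin that TGFb induces, was the highest of the targets, with 2.53, 2.15 and 3.47 and a fitted value of 2.77 ± 0.18 (adjusted p = 7.66e-06).

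Csta2 and Cstdc6 had the highest ratios of all called genes. Csta2 had ratios of 3.24, 3.52 and 2.97 and a fitted value of 3.25 ± 0.14 (adjusted p = 5.82e-07). Cstdc6, named Stfa1 in the array's own annotation, had 3.29, 3.52 and 3.05, with 3.25 ± 0.09 (adjusted p = 4.63e-09). The other probes of Cstdc6 had fitted values of 2.53 and 2.96. Stfa2l1 had 2.54, 2.68 and 2.33, with 2.50 ± 0.12 (adjusted p = 1.38e-06). For each of them the 3 arrays lay close together, with array 2 the highest.

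Of 6 stefins tested, 5 were higher and 0 lower, beside 3.76% and 2.08% of all genes. Stfa3 had ratios of 1.84, 1.48 and 1.20 (adjusted p = 9.62e-05). Stfa2, one of the genes whose promoter is given above, had 1.54, 1.43 and 0.53, with a T-effector signal well above background on 2 of 3 arrays. A further probe, LOC433016, which the reference table pairs with Cstdc4, had 2.98, 3.38 and 1.83, and the transcript ENSMUST00000077110 had 2.54, 2.75 and 1.97. The sixth, Cstb (stefin B), whose gene lies on chromosome 10 away from the cluster, did not pass (-0.32, adjusted p = 0.141). Copies of the stefin A cluster are so alike that a probe may read RNA of several, so the split of the signal among them is uncertain.

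Csta2, Cstdc6 and Stfa2l1 were also the only 3 genes of the array that passed when the 3 IL6 arrays were fitted alone without a dye term. They passed under all 29 settings tried, with fitted values from 2.29 to 3.67, from 2.35 to 3.47 and from 1.91 to 3.20. Of 9 serpins, inhibitors of serine proteases, 1 passed, against 5.84% of all genes. It was Serpinb1a, an inhibitor of neutrophil proteases named here after its values were seen, with ratios of 1.24, 1.91 and 0.80 (1.30 ± 0.15, adjusted p = 0.000796).

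**Figure D4:**
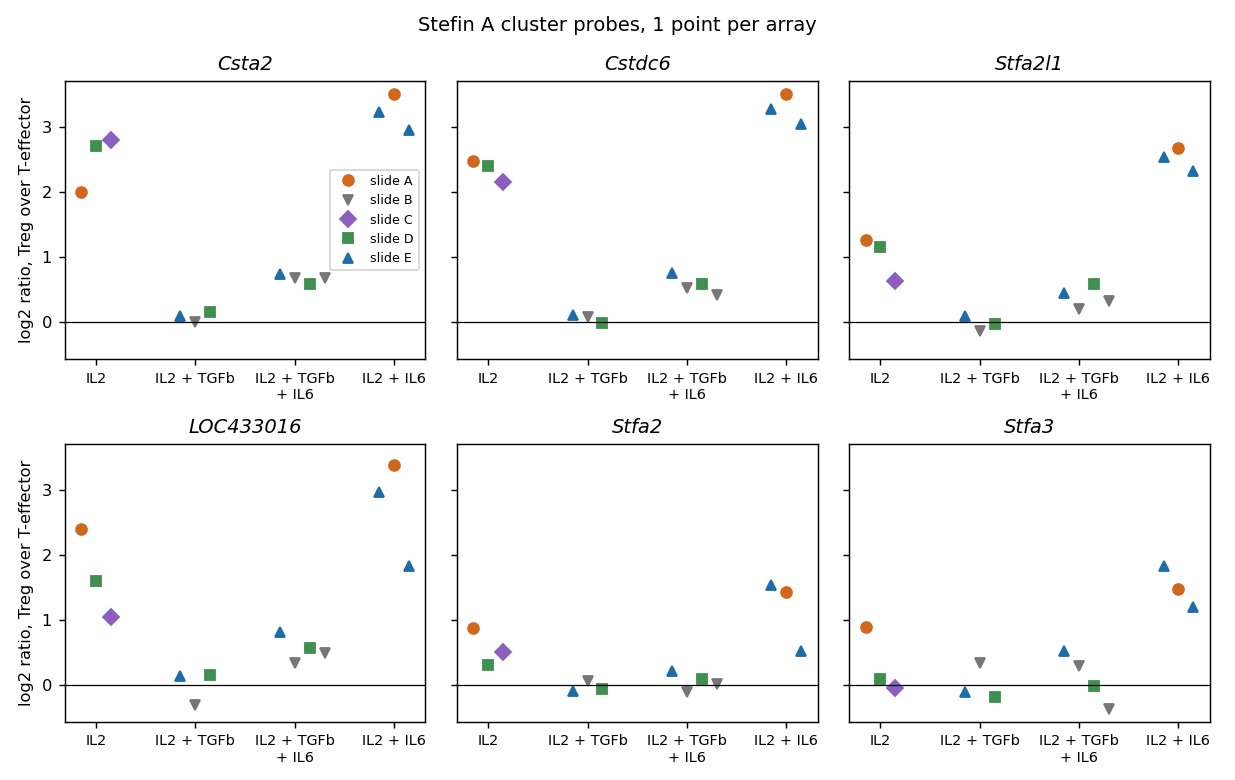
Log2 ratio of Treg over T-effector signal (vertical axis) of stefin genes in each condition, with 1 point per array, coloured by slide. For Csta2, Cstdc6 and Stfa2l1 every array with IL2 and IL6 lies above every array of the other conditions, and the arrays with IL2 and TGFb lie close to 0.

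Of 25 cytokine receptors, 6 were higher and 0 lower (3 higher and 10 lower under median centring), beside 3.76% and 2.08% of all genes. Il1r2, a decoy receptor for IL1, had ratios of 2.32, 1.25 and 1.94. Ifngr1, the ligand-binding chain for IFNg, had 0.81, 1.89 and 0.88 (1.16 ± 0.19, adjusted p = 0.00718), with the highest value on array 2, and lost its call without array 3 (0.056). Il7r, the IL7 receptor, which is usually low on Treg, was higher at 0.19, 0.33 and 0.74 (adjusted p = 0.0414), and lost its call without array 2 (0.118) or array 3 (0.309). S1pr1, the receptor by which T cells leave lymph nodes, had 0.64, 2.75 and 0.83 (adjusted p = 0.0384) and lost its call without array 2 (0.143) or array 3 (0.137).

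In the TNF receptor family 4 of 17 were higher and 0 lower (1 and 7 under median centring), beside 3.76% and 2.08% of all genes. Tnfrsf1b (TNFR2), a receptor through which TNF supports Treg, had ratios of 1.30, 1.60 and 1.26, all close to its fitted value of 1.37 ± 0.08 (adjusted p = 7.16e-06). Of 15 integrins 5 were higher. Besides those described, Itgb7, the partner of Itgae, had 1.37, 1.34 and 0.71, and Itgb3 had -0.53, 1.45 and 1.69 (adjusted p = 0.0497), below 0 on array 1. Itgb3 lost its call without array 2 (0.23) or array 3 (0.276). Of 15 chemokine receptors 2 were higher, among them Ccr2 at 1.47, 1.08 and 0.86.

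Genes lower in Treg differed less. The lowest was Gja1, the gap junction protein connexin 43, with ratios of -1.32, -2.13 and -0.83 (adjusted p = 0.00416). Ctla2a, a cysteine protease inhibitor unrelated to Ctla4, had -1.01, -1.89 and -0.95, and its relative Ctla2b had -0.25, -1.86 and -1.38. For these genes array 2 had the lowest value of the 3. Ctla2b lost its call without it (adjusted p = 0.113) or without array 3 (0.155).

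Of 24 genes of cholesterol synthesis 0 were higher and 3 lower, with a median of -0.30, beside 3.76% and 2.08% of all genes. Under median centring 0 were higher and 19 lower. Hmgcs1, which makes HMG-CoA, had -1.24, -1.62 and -0.73, Sqle, the squalene epoxidase, had -0.55, -1.46 and -0.57, and Idi1, an isomerase of the isoprenoid branch, had -0.62, -1.02 and -0.09. The medians of the list on arrays 1, 2 and 3 were 0.01, -0.86 and -0.12, so the list as a whole was low on array 2 alone. Without that array 1 gene was higher and 1 lower, and the calls of Sqle and Idi1 were lost (adjusted p = 0.0821 and 0.0608). Sqle also lost it without array 3 (0.188). Of 34 cell cycle genes 0 were higher and 4 lower (32 lower under median centring, with a median of -1.23), among them Cdk4, a kinase of the G1 phase, at -0.11, -0.65 and -1.19, which lost its call without array 3 (0.162). Without array 2 that list had 1 higher and 1 lower gene and a median of 0.03.

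Next, the ratios with IL6 were set against those with IL2 alone, which asks what IL6 changed in the difference between Treg and T-effector cells. No gene of 19901 (0%) passed limma's test of that difference at an adjusted p under 0.05, and 683 had an unadjusted p under 0.05. The smallest adjusted p was 0.0658, for Stfa2l1. Of the 1162 genes called with IL6, 704 (60.6%) were also called with IL2 alone, all in the same direction. Over all 19901 genes, 2184 were called with IL2 alone, and the 704 were 32.2% of them. Both sets of ratios come from 1 fit with a shared dye term.

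The stefins Stfa2l1 and Cstdc6 were among the genes with the smallest p-values in this test of limma. Genes outside the stefins departed too: Serpinb1a by 1.43 (unadjusted p = 3.40e-05, adjusted p = 0.113), Ighm by 1.18 and NAP113912-1 by -2.09. With IL2 alone the ratios of Stfa2l1 were 1.27, 1.16 and 0.63, all below its IL6 ratios, and the fitted difference was 1.46 (unadjusted p = 3.31e-06). Cstdc6 had 2.49, 2.41 and 2.16 with IL2 alone, a difference of 0.87 (unadjusted p = 2.03e-05, adjusted p = 0.0863). Csta2 had 2.00, 2.72 and 2.81, a difference of 0.76. On slide A, which holds 1 array of each condition in the same dye orientation, IL6 was above IL2 by 1.41 for Stfa2l1, 1.03 for Cstdc6 and 1.52 for Csta2. Leaving out IL6 array 2 kept only the 2 arrays of slide E. The difference of Stfa2l1 then had an adjusted p of 0.0149 and that of Cstdc6 0.0283. In that fit 90 genes passed, 26 higher and 64 lower. Without IL6 array 1 only Ighm passed, and without IL6 array 3 the count was 0.

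For the genes of the IL6 and TGFb pathways the differences from IL2 alone did not pass. Il6st had ratios of 0.15, -0.04 and -0.19 with IL2 alone, all below its IL6 ratios, with a difference of 0.53 (unadjusted p = 0.000681, adjusted p = 0.645). Smad7 differed by 0.73 (unadjusted p = 0.00056, adjusted p = 0.619). Socs3 had 0.28, 0.92 and 1.22 with IL2 alone, which overlaps its IL6 ratios, and the difference of 0.55 had a 95% interval from -0.09 to 1.19. For Foxp3 the interval ran from -0.80 to 0.25 around -0.27.

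The comparison with TGFb added to IL6 asks how the difference between the sample types moves when both cytokines are present. The ratios differed at 795 of 19901 genes (3.99%), 494 (2.48%) higher with IL6 and 301 (1.51%) lower, and 4298 genes had an unadjusted p under 0.05. Of the 1162 genes called with IL6, 231 (19.9%) were called with TGFb and IL6, 196 of them in the same direction. Over all 19901 genes, 1163 were called with TGFb and IL6, and the 231 were 19.9% of them. The count of 795 rests on few arrays: without array 1, 2, 3 or 4 of TGFb and IL6 it was 107, 171, 123 or 383, and without IL6 array 1, 2 or 3 it was 1747, 326 or 136. Without array 3 of TGFb it was 425, and without array 2 of IL2 alone 494.

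Ikzf2, the stefins and Socs3 had higher ratios with IL6 than with TGFb and IL6. Ikzf2 had a ratio of 0.42 with TGFb and IL6, 2.70 below that with IL6 (adjusted p = 0.000435). Csta2 had 0.75, 0.68, 0.59 and 0.67 on the 4 arrays with TGFb and IL6, a difference of 2.58 (adjusted p = 8.19e-05), and Cstdc6 differed by 2.68. For Socs3 those arrays gave 0.38, -0.02, -0.31 and -0.22, all below the lowest IL6 array, and the difference was 1.44 (adjusted p = 0.0191). Smad7 differed by 1.09 (adjusted p = 0.00439). On slide E, which holds 1 array of each condition with Treg in Cy3, IL6 was above TGFb and IL6 by 2.49 for Csta2, 1.11 for Socs3 and 1.12 for Smad7.

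Il6st went the other way. Its ratios with TGFb and IL6 were 1.21, 1.12, 1.05 and 1.00, all above those with IL6, a difference of -0.58 (adjusted p = 0.0188). Itgae, in contrast to Ikzf2, had a ratio of 2.49 with TGFb and IL6, against 2.77 with IL6, and Foxp3 had 2.16 against 2.12. Il3, a haematopoietic cytokine, was lower in Treg with IL6 at -0.51, -0.87 and -0.39 and had a ratio of 1.57 with TGFb and IL6, a difference of -2.16 (adjusted p = 1.62e-05). Acsf2, among the 5 genes with the largest positive differences, had ratios of -0.55, 2.76 and 0.15 with IL6, high on array 2 alone.

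**Figure D5:**
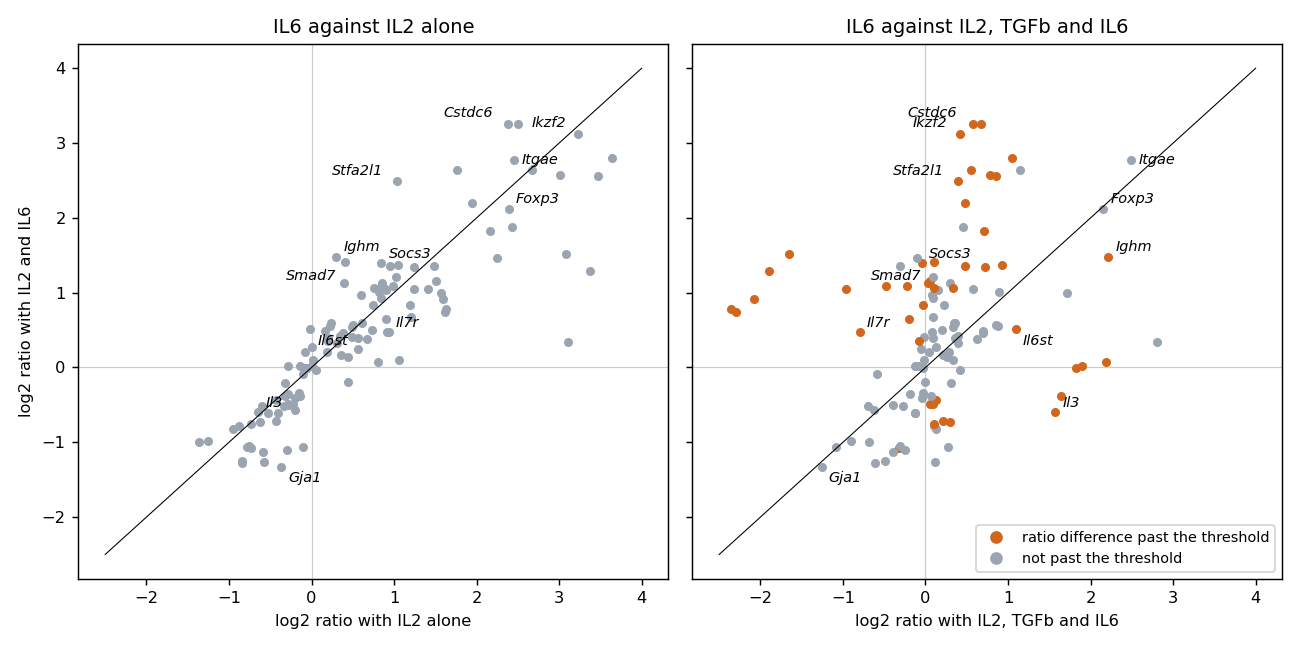
Fitted log2 ratio of Treg over T-effector signal with IL6 (vertical axis) against the ratio with IL2 alone and with TGFb and IL6 (horizontal axes) for the named genes, 1 point per gene, orange where the ratio difference passed the test. Ikzf2 and Foxp3 lie near the diagonal against IL2 alone and Cstdc6 and Stfa2l1 above it, and Cstdc6, Stfa2l1 and Ikzf2 are far above it against TGFb and IL6.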

How the data were processed

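The study's 13 Agilent arrays, 3 of them with IL2 and IL6, carry Treg RNA in one dye and T-effector RNA in the other (45018 spots, 41174 probes). Per the file headers, each scanner file holds intensities per spot (mean signal and local background in both dyes) and a log10 ratio of Cy5 over Cy3. Agilent Feature Extraction 9.5.1.1 is named in the submitters' processing notes. A log2 value for every probe and condition stands in a table deposited by the authors, whose method is not given in the sources used here. Over 28830 probes the authors' deposited table correlated at 0.771 with the mean ratio of the 3 arrays, and its median was -0.09. With the mean of the scanner files' own log ratios it correlated at 0.936. Of the 1162 called genes, 1162 had the same sign in the authors' deposited table. That table combines the same 3 arrays, so the shared sign is no independent support for the calls.

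Labels gave the dyes. The analysis ran limma 3.58.1 (R 4.3.3): normexp background correction with an offset of 50, its parameters estimated on spots free of background flags, then loess within arrays. A probe was kept (28923 in all) when at least 3 of 26 channels were well above background and at most 3 arrays were missing. Each of 19901 genes was represented by its brightest probe on average. Log2 ratios of all 13 arrays were fitted with a mean per condition and a gene-specific dye term, moderated (8 residual degrees of freedom) and adjusted by Benjamini-Hochberg at 0.05. A ratio gives the fitted value ± SE, and a level is the normalized log2 signal of 1 channel. The number of arrays limits the precision. The fit was tested on simulated data in which arrays scattered independently. Those data held no slide effect, spatial trend or deviating array, so that test says nothing about these.

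Probes were named by accession (22951), the files' own name (8455), symbol (6659) or synonym (3109) in the RefSeq table. Promoter windows were searched with Python 3.11.15 on both strands. Some items are not reported here. Members and lists were chosen with earlier results of these data known. The genes named are fixed anchor genes, for each list up to 4 called members that changed most, the 10 highest and 10 lowest called genes, the 5 highest and lowest of each ratio difference and sex-linked genes, plus genes named after their values were seen: Serpinb1a, Cxcr3, Gpr83, Smad3, Smad4, Smad5, Fos, Stfa2, Cstb, Il4, Il22, Gzma, Gzmc, Cd8a, Capg, Entpd1 and ENSMUST00000077110. Alternatives changed the background correction, the normalization, the filter, the probe rule, the dye term, the slide and the arrays left out.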

Additional observations from a re-analysis of the deposited data

Results flagged for a closer look

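Each value here is the log2 Treg over T-effector ratio with IL6 minus that with TGFb and IL6, and each passed limma's test of that difference, as did 795 of 19901 genes. The count moves with single arrays, as stated with the processing.

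Among the genes of the IL6 and interferon signals, Socs3 (1.44), Stat2 (0.87), Junb (1.57) and Ifngr1 (1.1) had the higher ratio with IL6, and Il6st (-0.58) the lower. In the TGFb pathway Smad7 (1.09), Smad4 (0.65) and Itgb8 (1.79) were higher, as were the integrin chains Itgb3 (2.02) and Itgb7 (0.95). Among Treg genes and receptors, Ikzf2 (2.70), Penk (1.72), Gpr83 (0.81), Ctla4 (0.87), Tnfrsf9 (0.62), Tnfrsf1b (0.44), Il1r2 (1.11), Il7r (1.26) and Ccr2 (0.73) were higher. Cxcr3, a chemokine receptor of Th1 cells, was lower (-1.1): its ratio was 0.02 with IL6, 1.00 with IL2 alone and 1.12 with TGFb and IL6.

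The stefins Cstdc6 (2.68), Csta2 (2.58), Stfa2l1 (2.10), LOC433016 (2.09), ENSMUST00000077110 (2.04), Stfa3 (1.30) and Stfa2 (1.06) were higher, and Cstb (-0.82) lower. Other higher genes were Ppp1r14c (1.75), Creb3l3 (1.70), Bbc3 (1.32), Gpi1 (0.43) and Kdm5c (0.85). The IL6 ratio of Kdm5c was 0.65 with the probe used and -0.11 with its other probe. Higher too were NAP113912-1 (3.18), NAP115147-1 (3.17), Kcna7 (3.13), Acsf2 (3.04) and AK038845 (2.99). With the spatial trend removed, the IL6 ratios of all of these were highest on array 2, for Kcna7 at -0.52, 2.66 and 0.01. The 95% intervals of the fitted IL6 ratios included 0 for Kcna7 (-0.21 to 1.77), Acsf2 (-0.22 to 1.70) and AK038845 (-0.04 to 1.87).

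Lower differences were found for Il3 (-2.16), Igh-VJ558 (-2.12), Serpinb5 (-2.02), Rbp4 (-1.88), Lhx6 (-1.83), Ighm (-0.73), Tnfsf14 (-0.58) and Pdcd1lg2 (-0.54). The cell cycle genes Cdk4 (-1.03), Ccnb1 (-0.93) and Cdc6 (-0.57) and the cholesterol genes Sqle (-0.86) and Hmgcs1 (-0.76) were also lower.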

How the results depend on the processing

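The counts of genes called with IL6, in the difference from IL2 and in that from TGFb with IL6 were 1162, 0 and 795. They were 3452, 4 and 3338 with Agilent's processed signals and 3839, 11 and 3606 with the spatial trend removed. Without an offset the first 2 were 737 and 1. With normexp fitted on all spots 2 genes passed in the difference from IL2. Median centring, with a median of -0.32 over all genes, gave 9015 and 6113 for the first and last, with 5.44% of the 9015 higher against 64.4% of the 1162. The share higher was 47.2% with Agilent's signals, 51.3% with the spatial trend removed and 82.7% with arrays of 1 slide averaged. Without the dye term the differences gave 3 and 431, with slide as a random block 6 and 2259, and with arrays of 1 slide averaged 243 genes passed with IL6 and 163 in the last difference. Without slide B the first and last were 443 and 17. Chosen after seeing the data were the fits without slide E (1895, 28 and 1920, where the lone IL6 array is assumed to vary like the other groups) and without slide A (70 in the difference from IL2). The 3 arrays alone gave 3. Leaving out 1 array at a time gave 167 to 1546, 0 to 90 and 107 to 1747. No paired analysis was possible because array numbers follow only the order of the labels, and IL6 shares 1 slide each with IL2 alone (A) and with TGFb and IL6 (E).

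Of 132 named genes tested, 86 passed, and 26 passed under every setting but the 3 arrays alone. Changes of sign are listed only for genes called in the main fit or in the altered one. Under median centring the ratio turned negative for Il6st (-0.19), Jak1 (-1.07), Stat3 (-0.86), Cish (-0.81), Maf (-0.87), Il7r (-0.39), Ski (-0.75), Itgav (-0.12), Junb (-0.13), Icos (-0.10), Tnfrsf25 (-0.054), Tnfrsf18 (-0.78), Il10ra (-0.13), Itgb7 (-0.072), Jun (-0.022), Stat2 (-0.11), Gpi1 (-0.92), Cd2 (-0.64), Cd74 (-0.19), Kdm5c (-0.38), Ddx3x (-1.06), Cxcr3 (-0.88), Smad4 (-0.63), Smad5 (-0.31) and Capg (-0.26). Without slide E, U2af1 was 0.061 and Xist -1.10, and without slide A, Gzma was 0.95. The causes were not tested. Genes that are not well above background cannot be ordered at these signals.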

Other observations

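Of 25 interferon-induced genes tested, 3 were higher in Treg with IL6 and 1 was lower, beside 3.76% and 2.08% of all genes. Under median centring 0 were higher and 7 lower. Gbp3, a GTPase of the interferon response, had ratios of 0.93, 2.28 and 0.67 (1.21 ± 0.24, adjusted p = 0.0155), highest on array 2. Isg20, an exonuclease induced by interferon, had 1.20, 0.63 and 0.81, and Stat2, a factor of the interferon signal, had 1.20, 0.53 and 0.89. Mx1, an antiviral GTPase, was lower at -0.29, -0.79 and -0.23 (adjusted p = 0.0351), near background. Without array 3 these 4 genes lost their calls (adjusted p = 0.0781, 0.0668, 0.105 and 0.133), and Mx1 also without array 2 (0.156).

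In the Bcl2 family 1 of 15 genes was higher and 1 lower, near the shares of all genes, and 0 and 11 under median centring. Both genes promote cell death. Bbc3 (Puma) had ratios of 0.41, 1.09 and 1.45 (1.09 ± 0.24, adjusted p = 0.025) and Bik had -0.18, -0.52 and -0.43 (-0.39 ± 0.09, adjusted p = 0.0365). Both lost their calls without array 2 (0.109 and 0.161) or array 3 (0.192 and 0.219).

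Outside the lists, Ppp1r14c, an inhibitor subunit of protein phosphatase 1, had ratios of 2.60, 3.31 and 2.43 (2.80 ± 0.22, adjusted p = 5.31e-05), and Creb3l3, a membrane-bound transcription factor, had 1.59, 3.32 and 2.59. Ttc39c had 3.26, 1.43 and 3.17, lowest on array 2. These 3 genes were among the 10 highest.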
